A study of Mus musculus with 8 samples.

Results

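Mast cells and basophils were picked out of single-cell RNA libraries of mouse dorsal skin by the genes they express, and 64 such cells were found among the 26231 barcodes of 8 libraries. A barcode was kept when it held 500 to 4000 genes, at most 20000 unique molecular identifiers (UMIs, each marking 1 captured transcript) and at most 20% mitochondrial UMIs, which 14640 barcodes did. A member then had to show at least 2 of the 7 genes Cpa3, Mcpt4, Cma1, Tpsb2, Mcpt8, Fcer1a and Ms4a2 with at least 5 UMIs in sum, no UMI of the T cell gene Cd3e, and less than 1% of its UMIs from the collagen genes Col1a1, Col1a2 and Col3a1. Members with Mcpt8 but neither Mcpt4 nor Cma1 were called basophils (5 cells), and the other 59 were called mast cells. Members were thus chosen by the measured UMI counts of these genes, and their levels against other cells, or of mast cells against basophils, are given as a description with no test.

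The libraries came from female BALB/c mice aged 14 to 16 weeks whose dorsal skin had received subcutaneous injections of PBMCsec (4 libraries) or vehicle (4 libraries). PBMCsec is the lyophilised set of factors that human peripheral blood mononuclear cells release into culture medium after gamma irradiation, so a human product was tested in mouse skin. The labels do not give the day of sampling, whether the skin had been wounded, or which solution served as vehicle, and no allele or transgene is named. They also do not say whether each library came from a separate mouse, so the p-values measure the spread between these samples. Tissue was dissociated with enzymes and captured with 10x Genomics 3′ chemistry, in which counts come from transcript ends and were not divided by gene length. The series is titled for the activation of mast cells and basophils, which is the question that the comparison of PBMCsec with vehicle addresses here.

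Mast cells are long-lived tissue residents that depend on the receptor Kit and store histamine, serotonin, heparin-like proteoglycans and proteases in granules. In mouse skin most are of the connective tissue type, which is known for the chymases Mcpt4 and Cma1, the tryptases Tpsb2 and Tpsab1 and the receptor Mrgprb2, whereas mucosal mast cells are known for Mcpt1 and Mcpt2. Basophils are short-lived blood granulocytes that share the high-affinity IgE receptor (Fcer1a, Ms4a2, Fcer1g) and histamine synthesis with mast cells, carry the protease Mcpt8, and are known as a source of interleukin 4.

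Members were spread unevenly over the libraries. PBMCsec libraries 1, 2, 3 and 4 held 6, 18, 4 and 2 members, and vehicle libraries 1, 2, 3 and 4 held 13, 19, 0 and 2. As a share of cells within the limits, the PBMCsec libraries held 0.451%, 2.37%, 0.128% and 0.0913%, and the vehicle libraries 2.61%, 3.21%, 0% and 0.0898%. The high and the low libraries were found in both groups, and the groups overlapped. The exact 95% Clopper-Pearson interval was 1.41 to 3.73% for PBMCsec library 2 and 1.95 to 4.98% for vehicle library 2. For vehicle library 3, 0 of 3913 cells allowed a share of up to 0.0767% by the limit of 3 counts and 0.0942% by the exact interval, and intervals and floors cover counting error only. Libraries numbered 1 and 2 contributed 56 members among 3178 cells, and those numbered 3 and 4 contributed 8 among 11462. In each group the shares were higher in libraries 1 and 2 than in 3 and 4, though PBMCsec library 1 reached only 0.451%. What the library number stands for is not given in the labels.

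**Figure D1:**
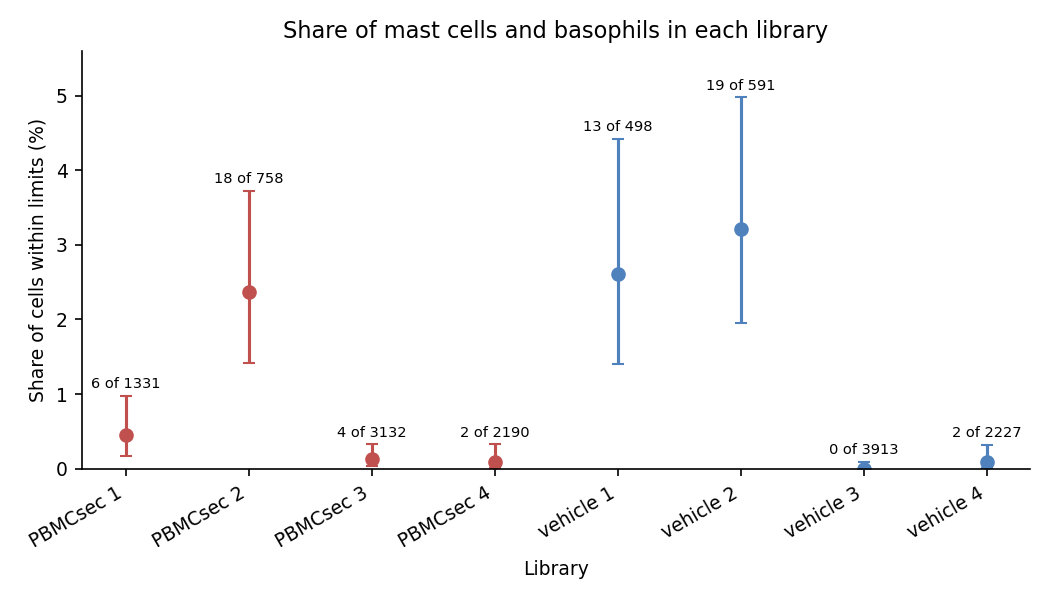
Share of mast cells and basophils among the cells within the limits (y axis, %) for each library (x axis). Points are the shares, bars the exact 95% Clopper-Pearson intervals, and the text gives members of cells. PBMCsec library 2 (2.37%) and vehicle libraries 1 (2.61%) and 2 (3.21%) lie above the other 5 libraries, none of which exceeds 0.451%.

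Mean shares did not differ between PBMCsec and vehicle beyond the spread of the libraries. The share of members was 0.761% ± 1.09 after PBMCsec and 1.48% ± 1.67 after vehicle (SD, n = 4 each), a difference of -0.72 percentage points (two-sided exact permutation test, p = 0.543, adjusted p = 0.724). The share of mast cells was 0.683% ± 1.04 against 1.43% ± 1.63 (exact permutation p = 0.543, adjusted p = 0.724). Basophils made up 0.0785% ± 0.0738 of cells after PBMCsec and 0.0502% ± 0.10 after vehicle (exact permutation p = 0.83, adjusted p = 0.83). The direction of this difference rested on 1 cell of vehicle library 2, described below, which has none of the 3 genes that split the classes. Counted as a basophil it turned the vehicle mean to 0.0925% ± 0.108 (exact permutation p = 0.743). Among members, basophils made up 16.0% ± 15.8 (n = 4) and 2.56% ± 4.44 (n = 3), since vehicle library 3 had no member (exact permutation p = 0.343, adjusted p = 0.724). The adjustment was by Benjamini-Hochberg over these 4 shares, and the smallest p that the design allows is 0.0286. Within the libraries numbered 1 and 2 the difference in the share of members was -1.50 percentage points, and within those numbered 3 and 4 it was 0.0646.

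Some barcodes lay near the edges of the rule, most of them at the lower limit on genes. Summed UMIs of the 7 genes had a median of 267 and reached 1852, with 51 members at 100 or more and 3 members at 5 to 10. Just outside, 5 barcodes had 3 or 4 summed UMIs, of which 4 showed Mcpt8 without Mcpt4 or Cma1. A further 3 barcodes, all in vehicle library 1, failed only on a single Cd3e UMI while carrying 83, 264 and 118 Cma1 UMIs. The lower limit on genes alone removed 28 barcodes, 12 of them in PBMCsec library 4 and 6 in vehicle library 4. The limit on mitochondrial UMIs alone removed 4, while members held a median of 8.10% and a limit of 5% would have left 20 members, including all 5 basophils. Between libraries, 78 barcode sequences were shared, and 1 of them belonged to a member. No doublet caller was run, and 0 members had over 1% of their UMIs in the marker genes of other skin cells.

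Granule proteases, including 5 of the genes by which members were picked, gave part of the members' RNA. Of 15 listed granule protease genes, 13 had a UMI in members, and together they made up 14.6% of the 181213 member UMIs against 0.0359% in the other cells within the limits. Cma1, a chymase, gave 11201 UMIs in 58 of 64 members, and Mcpt4, the chymase typical of connective tissue mast cells, gave 6915 in 55. Cpa3, a carboxypeptidase of both cell types, was found in 63 members, the tryptase Tpsb2 in 57 and the tryptase Tpsab1 in 47. Ctsg, the granule serine protease cathepsin G, had 184 UMIs in 35 members. The mucosal proteases Mcpt1 and Mcpt2 had 1 and 2 UMIs, and the basophil protease Prss34 had 0. Among the 14576 other cells, 0.384% held a Cma1 UMI and 0.247% a Mcpt4 UMI, and 465 of their 536 Cma1 UMIs lay in the 3 barcodes that failed only on Cd3e. Without those 3, 0.364% held a Cma1 UMI and 0.226% a Mcpt4 UMI, although their libraries' median depths were 5209 to 7188 UMIs per cell against 1117 to 3183 in members. In the last 500 transcript bases, the longest identical run between Mcpt4 and Cma1 was 27 bases and that between Tpsb2 and Tpsab1 was 23.

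The promoters of 4 protease genes are printed, namely the 3 that split the classes (Mcpt4, Cma1 and Mcpt8) and Cpa3, which both classes carried. The windows run from 250 bases before to 50 bases after the RefSeq start in GRCm38.p6, 5′ to 3′ on the gene's strand. All 4 genes lie on the minus strand, Cpa3 at chr3:20242132-20242431, Mcpt4 at chr14:56062261-56062560, Cma1 at chr14:55944626-55944925 and Mcpt8 at chr14:56085148-56085447. Mcpt4, Cma1 and Mcpt8 lie near each other on chromosome 14. Capitals mark the motif GATAA or its reverse complement TTATC, the core letters bound by GATA factors, searched on both strands after the sequences had been seen.
Cpa3: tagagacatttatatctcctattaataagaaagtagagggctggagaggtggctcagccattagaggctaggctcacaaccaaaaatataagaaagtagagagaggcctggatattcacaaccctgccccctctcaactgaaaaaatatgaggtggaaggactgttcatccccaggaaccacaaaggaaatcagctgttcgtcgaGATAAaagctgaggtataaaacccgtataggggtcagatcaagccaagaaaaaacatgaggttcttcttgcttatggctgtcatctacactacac
Mcpt4: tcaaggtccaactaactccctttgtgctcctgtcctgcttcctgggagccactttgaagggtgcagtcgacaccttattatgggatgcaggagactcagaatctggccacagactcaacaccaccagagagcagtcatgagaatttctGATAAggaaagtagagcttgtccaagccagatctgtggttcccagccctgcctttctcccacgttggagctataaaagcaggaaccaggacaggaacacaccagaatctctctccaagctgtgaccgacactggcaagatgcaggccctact
Cma1: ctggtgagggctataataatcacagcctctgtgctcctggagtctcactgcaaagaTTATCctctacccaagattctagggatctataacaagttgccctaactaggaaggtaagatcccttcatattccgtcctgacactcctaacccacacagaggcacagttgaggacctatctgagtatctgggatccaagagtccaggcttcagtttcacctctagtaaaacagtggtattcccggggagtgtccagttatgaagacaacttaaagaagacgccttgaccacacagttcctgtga
Mcpt8: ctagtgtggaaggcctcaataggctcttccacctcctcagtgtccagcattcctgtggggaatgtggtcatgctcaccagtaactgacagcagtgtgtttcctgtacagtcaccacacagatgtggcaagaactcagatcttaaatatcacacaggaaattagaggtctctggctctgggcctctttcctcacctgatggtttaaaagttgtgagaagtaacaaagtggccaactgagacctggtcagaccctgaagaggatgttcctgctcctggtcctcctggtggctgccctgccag
The motif was present once each in the windows of Cpa3, Mcpt4 and Cma1 and was not in that of Mcpt8. Of the 7 genes of the rule, 6 had a promoter in the table, and 5 of these held the motif, as did 8347 of all 32851 promoters (25.4%). A match of these letters is a description of the sequence and does not show a binding site.

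Genes for granule contents other than proteases were also high in members. Srgn, which encodes the proteoglycan serglycin that packs proteases and amines, had 1474 UMIs in all 64 members. Hdc, which makes histamine, had 597 UMIs in 60 members, and these few cells held 35.2% of all Hdc UMIs among cells within the limits. Tph1, which starts serotonin synthesis, was found in 36 members, all of them mast cells, and 97.3% of its UMIs fell in members. Slc18a2, the vesicular amine transporter, was detected in 43 members and Cd63, a granule membrane protein, in 57. In contrast, the general lysosomal gene Lamp1 stood at 166 CPM in members and 369 CPM in other cells, where CPM are counts scaled to a common total. Serpinb1a, an inhibitor of granule proteases, had 553 UMIs in 61 members. Cyp11a1, a steroid synthesis enzyme, had 241 UMIs in 53 members, including all 5 basophils, and members held 59.7% of its UMIs.

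The IgE receptor and its signalling genes were present in both cell classes. Fcer1a, the chain that binds IgE, was found in 59 members, Ms4a2, the beta chain, in 55, and Fcer1g, the shared signalling chain, in 61. Fcer1g was not restricted to members, which held 7.33% of its UMIs, whereas they held 92.9% of those of Fcer1a and 92.4% of those of Ms4a2. Of 23 listed receptor and proximal signalling genes, 21 had a UMI, and the list made up 0.934% of UMIs in members and 0.0603% in other cells. The adaptor Lat2 was the next most frequent, with 189 UMIs in 53 members, followed at distance by Prkcb and Prkcd with 31 UMIs each and by the kinase Lyn with 26. Among 16 inhibitory receptors and phosphatases, Inpp5d, the lipid phosphatase that limits IgE signalling, had the most UMIs (65 in 37 members). Milr1, an inhibitory receptor of mast cells, had 30 UMIs in 19 members, all of them mast cells.

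Receptors for growth factors and degranulating ligands marked most of the mast cells. Kit had 140 UMIs in 45 members, each of them a mast cell. Il1rl1, the interleukin 33 receptor, had 235 UMIs in 42 members. Mrgprb1 had 423 UMIs in 52 members, and Mrgprb2, the receptor through which basic peptides and drugs trigger mast cells, had 139 in 40. Both genes were detected together in 38 members, Mrgprb1 without Mrgprb2 in 14 and Mrgprb2 without Mrgprb1 in 2. Ramp1, part of the receptor for the neuropeptide CGRP, had 116 UMIs in 47 members, and Adora3, an adenosine receptor, had 52 in 32. Il3ra, a chain of the interleukin 3 receptor and a usual basophil marker, was sparse, with 22 UMIs in 14 mast cells, 2 basophils and 1 further member. Among 20 transcription factors, Gata2, which both lineages need, was the most abundant with 191 UMIs in 46 members, and 63.9% of its UMIs lay in members. Mitf, the mast cell factor, had 23 UMIs in 15 mast cells, and Tal1 had 41 UMIs in 28 members.

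Il4 had 64 UMIs in 34 members, of which 30 were mast cells with Mcpt4 or Cma1 and 3 were basophils. Csf1 had 76 UMIs in 17 members, whereas Il13 had 3 UMIs, Il6 had 5 and Tnf had 4. Ccl2 and Ccl7, attractants of monocytes, had 229 UMIs in 46 and 190 UMIs in 25 members, all of them mast cells, and 22 members held both. Alox5ap, which serves leukotriene synthesis, had 84 UMIs in 34 members, and Hpgds, which makes prostaglandin D2, had 54 UMIs in 31 mast cells and 0 in basophils. Rab27b, a regulator of granule exocytosis, had 86 UMIs in 41 mast cells. Of 18 interferon-stimulated genes, 14 had a UMI, and the list made up 0.13% of UMIs in members against 0.17% in other cells.

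Markers of other skin cells were at or near 0, except those of group 2 innate lymphoid cells. The 5 neutrophil and 5 melanocyte markers had no UMI in any member, and the 7 T cell markers had 3 UMIs, with Cd3d and Trac at 0 and Cd3e at 0 by the rule. Fibroblast markers, whose collagens the rule limited, had 12 UMIs (5 of them Col3a1, with Pdgfra and Lum at 0), keratinocyte markers 24 (7 of them Krt14), and macrophage and dendritic cell markers 14 (5 of them H2-Ab1, with Cd74, C1qa and C1qb at 0). Endothelial and mural markers had 12 UMIs, all of Pecam1, and erythrocyte and platelet markers had 1. The summed share of fibroblast markers was 0.007% of member UMIs against 1.11% in other cells, and per library it was highest in PBMCsec library 4 at 0.0448%. The 9 markers of group 2 innate lymphoid cells had 57 UMIs, led by Thy1 with 25. They made up 0.0315% of member UMIs against 0.0575% in other cells.

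The 2 classes differed in more than the genes that split them. Tpsb2, Tpsab1, Mrgprb1, Ccl2, Id2, Basp1, Ccl7 and Ctsg, which the split did not use, had 0 UMIs in the 5 basophils and 2785, 986, 423, 229, 203, 197, 190 and 184 in mast cells. Basophils were not shallower, with a median of 3112 UMIs against 2079 in the 58 mast cells with Mcpt4 or Cma1, and they held a median of 1472 against 902 genes. Their mitochondrial share was lower, at a median of 1.88% (0.546 to 2.20%) against 8.34% (1.7 to 18.5%). In the other direction, the chemokine genes Ccl3, Ccl6 and Ccl9 and the membrane gene Ifitm1 had 248, 132, 91 and 49 UMIs in the basophils and 2, 0, 1 and 4 in the 58 mast cells. Lilrb4a, an inhibitory receptor, and Il18rap, a chain of the interleukin 18 receptor, were each found in all 5 basophils, with 23 and 18 UMIs, and in 0 of the 58. The 10 highest genes by ratio over all 59 cells of the mast class also held Acod1 and Ms4a4b, which each came from 1 cell, whereas Cd7 came from 4, Hip1r and Btg2 from 3, Gm12840 from 2 and Syne1 from all 5. Because the classes were drawn from the same transcripts, these contrasts carry no test.

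Shared genes were Hdc, Gata2, Cyp11a1, Fcer1g and Cd200r3, each found in all 5 basophils and in 54, 40, 47, 55 and 43 of the 58 mast cells. Cd200r3 is often used to mark basophils, and in these libraries 96 of its 129 UMIs were in the 58 mast cells. Those cells held 161203 UMIs in all against 16827 in the basophils, which had 5, 4, 6, 2 and 8 Cd200r3 UMIs. Mcpt8 itself was found in 4 mast cells, 3 of them with 1 UMI and 1 with 5 UMIs, so 8 of 28 Mcpt8 UMIs were outside the basophils. Csf1, a macrophage growth factor, had 50 UMIs in basophils and 12 in the 58 mast cells, and 41 of the 50 were in the basophil of vehicle library 1.

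**Figure D2:**
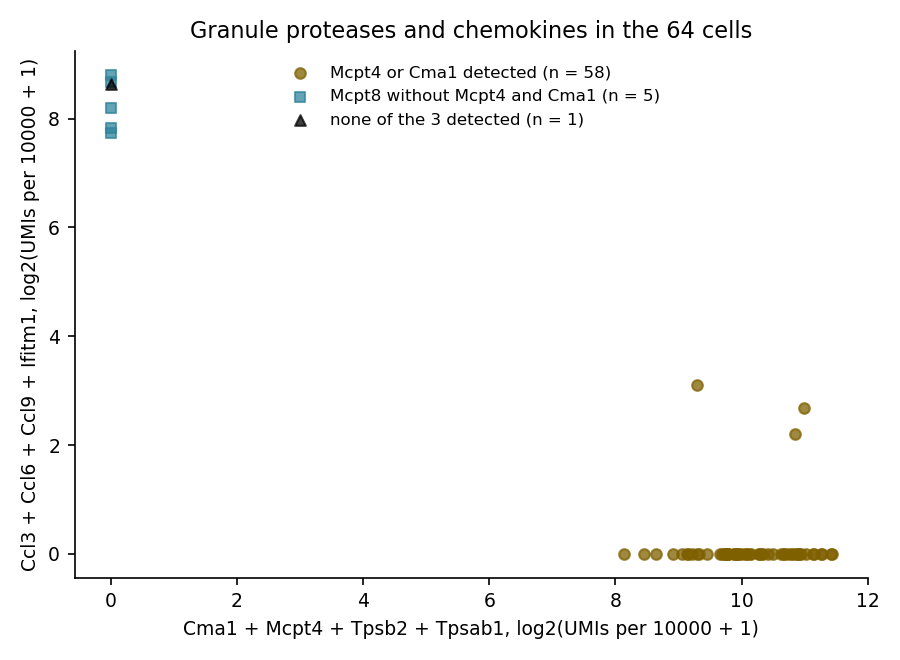
Sum of Cma1, Mcpt4, Tpsb2 and Tpsab1 (x axis) against the sum of Ccl3, Ccl6, Ccl9 and Ifitm1 (y axis), both as log2(UMIs per 10000 + 1), with 1 point per cell. The 58 cells with Mcpt4 or Cma1 lie at 282 to 2764 protease UMIs per 10000, with 55 of them at 0 for the second sum, and the 5 basophils lie at 0 proteases and 212 to 447 on the second sum. The cell with none of the 3 class genes (triangle) lies with the basophils at 399.

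The 5 basophils were uneven among themselves. The 2 basophils of PBMCsec library 1 had 21 and 4 Ccl3 UMIs, that of PBMCsec library 2 had 12, that of PBMCsec library 3 had 79 and that of vehicle library 1 had 132. Ccl4, a related chemokine, had 30, 4, 0, 81 and 270 UMIs in the same cells. High Ccl3 and Ccl4 thus fell in the same 2 cells, 1 of each group. Ccl6 ran otherwise, with 23, 25, 67, 17 and 0 UMIs, the 0 being the vehicle cell with most Ccl3. Mcpt8 had 2, 8, 7, 1 and 2 UMIs. The lone vehicle basophil also had 76 UMIs of the early response gene Jun and 23 of the activation marker Cd69, against at most 9 and 2 in the PBMCsec basophils. With 1 basophil in the vehicle group there is no test of treatment in basophils, and these are counts of single cells.

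One member called a mast cell by the rule, in vehicle library 2, had none of Mcpt8, Mcpt4 and Cma1. It passed on 2 Cpa3, 1 Fcer1a and 4 Ms4a2 UMIs among 3183. It had 40 Ccl3, 16 Ccl4, 54 Ccl6, 22 Ccl9 and 11 Ifitm1 UMIs, 8 of Cd200r3 and 8 of Gata2, and 0 of Kit, Tpsb2, Tpsab1, Mrgprb1 and Mrgprb2. Its mitochondrial share was 1.89%, within the range of the basophils. By leading genes it resembled the 5 basophils, and it was kept in the class that the rule gave it. All 54 Ccl6 UMIs and 40 of the 42 Ccl3 UMIs of the mast cell class were in this cell.

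**Figure D3:**
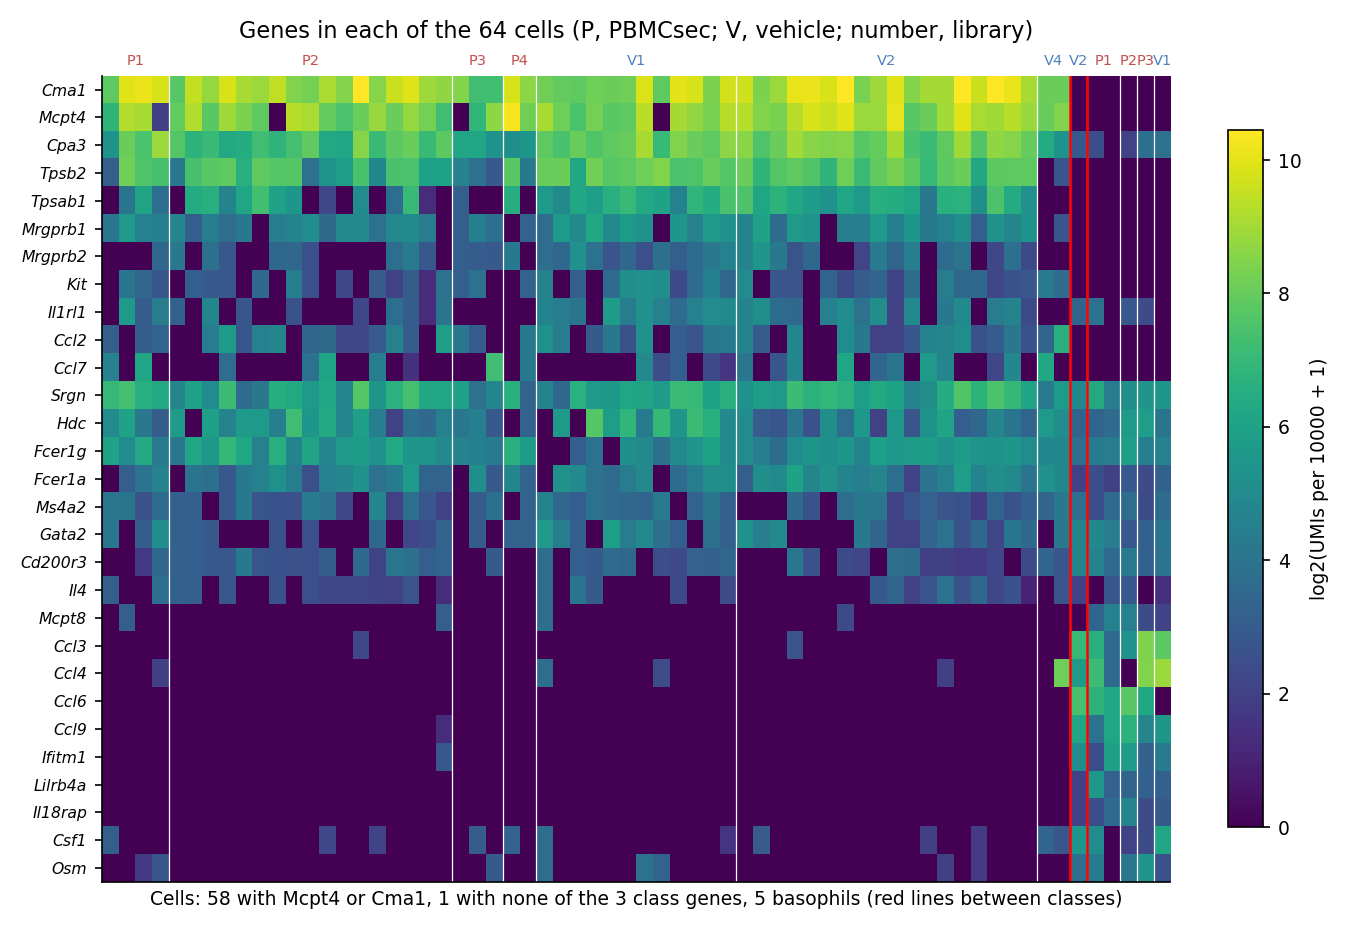
Level of the labelled genes (rows) in each of the 64 cells (columns), as log2(UMIs per 10000 + 1), with cells ordered by class and library. Red lines separate 58 cells with Mcpt4 or Cma1, 1 cell with none of the 3 class genes and 5 basophils. The upper 11 rows, from Cma1 to Ccl7, are dark in the 5 basophils except Cpa3 and Il1rl1, and the rows from Ccl3 to Il18rap are dark in nearly all of the 58.

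Among the 58 mast cells with Mcpt4 or Cma1, levels varied several fold. Cma1 ranged from 152 to 1392 UMIs per 10000 (median 507) and Mcpt4 from 0 to 1263 (median 385). Cpa3 ranged from 35.8 to 534 (median 217) and Tpsb2 from 0 to 349 (median 192). Cells with more Cma1 tended to have more Mcpt4, Cpa3 and Tpsb2, with Spearman's rho over the 58 cells of 0.60, 0.58 and 0.36, and Tpsb2 and Tpsab1 had a rho of 0.65. These points share libraries, depth and a common total, and rho is given as a description. The share of the 7 genes was also lower in cells with more mitochondrial UMIs (rho -0.48).

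In 54 of the 58 mast cells the ratio of Cma1 to Mcpt4 UMIs lay between 0.387 and 5.05 (median 1.35). The other 4 had at most 2 Mcpt4 UMIs, and were singled out after their values were seen. They carried 607, 133, 46 and 51 Cma1 UMIs with 2, 0, 0 and 0 Mcpt4 UMIs, and came from PBMCsec libraries 1, 2 and 3 and vehicle library 1. The lowest Mcpt4 count in the remaining 54 was 14. All 4 had Tpsb2 (115, 39, 3 and 77 UMIs), Tpsab1 and Mrgprb2, and 3 of them had Kit. They had 0 UMIs of Mcpt8, Ccl3 and Ccl6. Over whole libraries the ratio of Cma1 to Mcpt4 was 3.96, 1.91, 1.17 and 0.838 after PBMCsec and 1.46, 1.42 and 0.875 after vehicle. Without those 4 cells, PBMCsec library 1 fell to 2.01 and PBMCsec library 3 to 0.577, so the first value rested on a single cell.

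Some genes were confined to a fraction of the mast cells. Ccl7 was at 0 in 33 of the 58 and reached 149 UMIs per 10000 in 1 cell of PBMCsec library 3. Gzmb, granzyme B, had 95 UMIs in 15 of the 58 and 1 UMI in a basophil, which together gave 27, 32, 0, 2, 34, 1 and 0 UMIs in members of PBMCsec libraries 1 to 4 and vehicle libraries 1, 2 and 4. Vehicle library 2, which held the most members, thus had 1 Gzmb UMI. Meis2, a homeobox factor, went the other way, with 25 of its 33 UMIs and 14 of its 21 cells in vehicle library 2. Isg15, an interferon-stimulated gene, was found in 14 mast cells, with 46 UMIs. Of 49 Ccl4 UMIs in vehicle library 4, all were in 1 mast cell.

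Stress and early response genes varied widely between the libraries of both groups. Of 30 early and NF-kappaB response genes, 27 had a UMI in members, and their summed share was 2.36%, 0.730%, 3.84% and 1.21% in members of PBMCsec libraries 1 to 4 and 2.54%, 0.959% and 5.69% in those of vehicle libraries 1, 2 and 4. The heat shock list made up 0.470%, 0.858%, 1.74% and 0.358% after PBMCsec and 0.53%, 0.681% and 1.32% after vehicle. Both lists were highest in PBMCsec library 3 and vehicle library 4, which held 4 and 2 members. The highest-count early gene was Jun with 314 UMIs in 46 members, 76 of them in a single basophil. Hspa1b, an inducible heat shock gene, had a median of 3.90 UMIs per 10000 in the 58 mast cells and a highest value of 108.

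UMIs were summed over the members of each library to compare treatment. A test with at least 5 members in 3 libraries per group was not possible, because only libraries 1 and 2 of each group had that many. The comparison given here is the alternative that takes every library with a member, 4 PBMCsec libraries (18949, 50813, 6506 and 2234 member UMIs) against 3 vehicle libraries (33870, 66031 and 2810). The edgeR quasi-likelihood test called 0 of 269 genes (0%) at an adjusted p under 0.05, with 0.982 as the smallest adjusted p. Without adjustment, 10 genes (3.72%) had a p under 0.05, of which 6 were lower and 4 were higher after PBMCsec. The fit held 6 genes of the rule, kept so that the adjustment covered the whole table, and their own results support nothing because members were chosen on their UMIs. Among the 263 other genes, 9 had an unadjusted p under 0.05 (5 lower and 4 higher). Over all 269 genes, 133 were lower (49.4%), and the median log2 fold change was 0.01. DESeq2 also called 0, and its unadjusted p was under 0.05 for 8 genes that were lower and 2 that were higher. For the 59 cells of the mast class, edgeR called 0 of 185 genes (0%), 5 (2.7%) had an unadjusted p under 0.05 and 91 (49.2%) were lower. The absence of calls does not show that levels were equal.

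No granule protease outside the rule passed the test, and these genes went either way. Of 8 tested granule protease genes 6 were lower, but 4 of these were genes of the rule. In the libraries numbered 3 and 4, vehicle library 4 was alone in its group, and the proteases tested were all genes of the rule. There 3 of 4 were higher, as were 39 of all 65 genes. Of the 4 outside the rule in all libraries, Tpsab1 (log2 fold change -1.37 ± 0.98, SE) and Ctsd (-0.28 ± 0.59) were lower in value. Ctsg (0.71 ± 0.66) and Gzmb (0.72 ± 1.14) were higher. Cma1 stood at 50041 ± 24340 CPM (SD, n = 4) after PBMCsec and 51288 ± 25896 (n = 3) after vehicle. Mcpt4 had 33848 ± 30038 against 39850 ± 13741 CPM, and Cpa3 had 11955 ± 9321 against 19956 ± 12685. Tpsb2 had 8889 ± 5340 against 13211 ± 11144 CPM, with PBMCsec library 3 (925 CPM) and vehicle library 4 (356 CPM) far below the others. For each of these 4 proteases the groups overlapped. They are genes of the rule, and their p is not given.

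The 4 tested genes of the IgE receptor list were 3 lower and 1 higher, and outside the rule Lat2 was lower in value and Fcer1g higher. Fcer1a, also of the rule, had 1324, 1971, 1080 and 1792 CPM after PBMCsec and 2074, 2517 and 3205 CPM after vehicle, and its p is not given either. Ms4a2 had 735 ± 250 against 1083 ± 349 CPM, Lat2 had 685 ± 413 against 923 ± 229, and Fcer1g had 4571 ± 2320 against 3256 ± 585.

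Kit had the smallest unadjusted p of all genes. It stood at 530, 552, 463 and 448 CPM in members of PBMCsec libraries 1 to 4 and at 1422, 697 and 1425 CPM in those of vehicle libraries 1, 2 and 4. The groups did not overlap in 23 of all 269 genes (8.55%), 22 of them outside the rule. Kit was among them in these sums, with every PBMCsec library below every vehicle library, yet the 448 CPM of PBMCsec library 4 and the 463 CPM of PBMCsec library 3 stood for 1 and 3 UMIs. The log2 fold change was -1.22 ± 0.43 (edgeR, unadjusted p = 0.0174, adjusted p = 0.982), so Kit was not called. In the mast class alone, without the UMIs of basophils, Kit stood at 749, 588, 719 and 448 CPM against 1717, 697 and 1425 CPM, and the groups overlapped. Slc6a4, the serotonin transporter, had 159, 473, 463 and 448 CPM against 682, 970 and 712 CPM, again without overlap and not called (log2 fold change -1.28 ± 0.45, edgeR adjusted p = 0.982), whereas in the mast class the groups overlapped (719 CPM in PBMCsec library 3, 712 CPM in vehicle library 4). Vwa5a (-1.36), the scaffold gene Ahnak (-1.06) and the early response gene Egr1 (-2.20) completed the 5 lowest unadjusted p in that direction. Ahnak did not overlap between the groups, and the other 2 did.

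In the other direction, Rpl13, a ribosomal protein gene, had 2807, 2759, 2931 and 1344 CPM after PBMCsec and 1037, 1258 and 1068 CPM after vehicle, without overlap (log2 fold change 1.05 ± 0.39, edgeR adjusted p = 0.982). Arpc1b, a subunit of the actin-branching Arp2/3 complex, had 742, 729, 925 and 448 CPM against 267, 349 and 356 CPM, also without overlap (1.08 ± 0.41). Rps3 (0.94), Cyp11a1 (1.02) and Lgals3 (1.21), the galectin 3 gene, followed and were not called either. Ribosomal protein genes, a list added after the values were seen, had 54 higher and 14 lower among 68 tested, with a median log2 fold change of 0.26 against 0.01 over all genes. DESeq2 gave the same counts, but with the limit of 5% on mitochondrial UMIs 34 were lower and 21 higher. In the mast class 53 were higher and 7 lower, and 30 higher and 12 lower with that limit. In 12 of these 68 the groups did not overlap (17.6%), against 8.55% over all genes. In the mast class this held for 11 of the 68 (16.2%), against 18 of all 269 (6.69%).

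**Figure D4:**
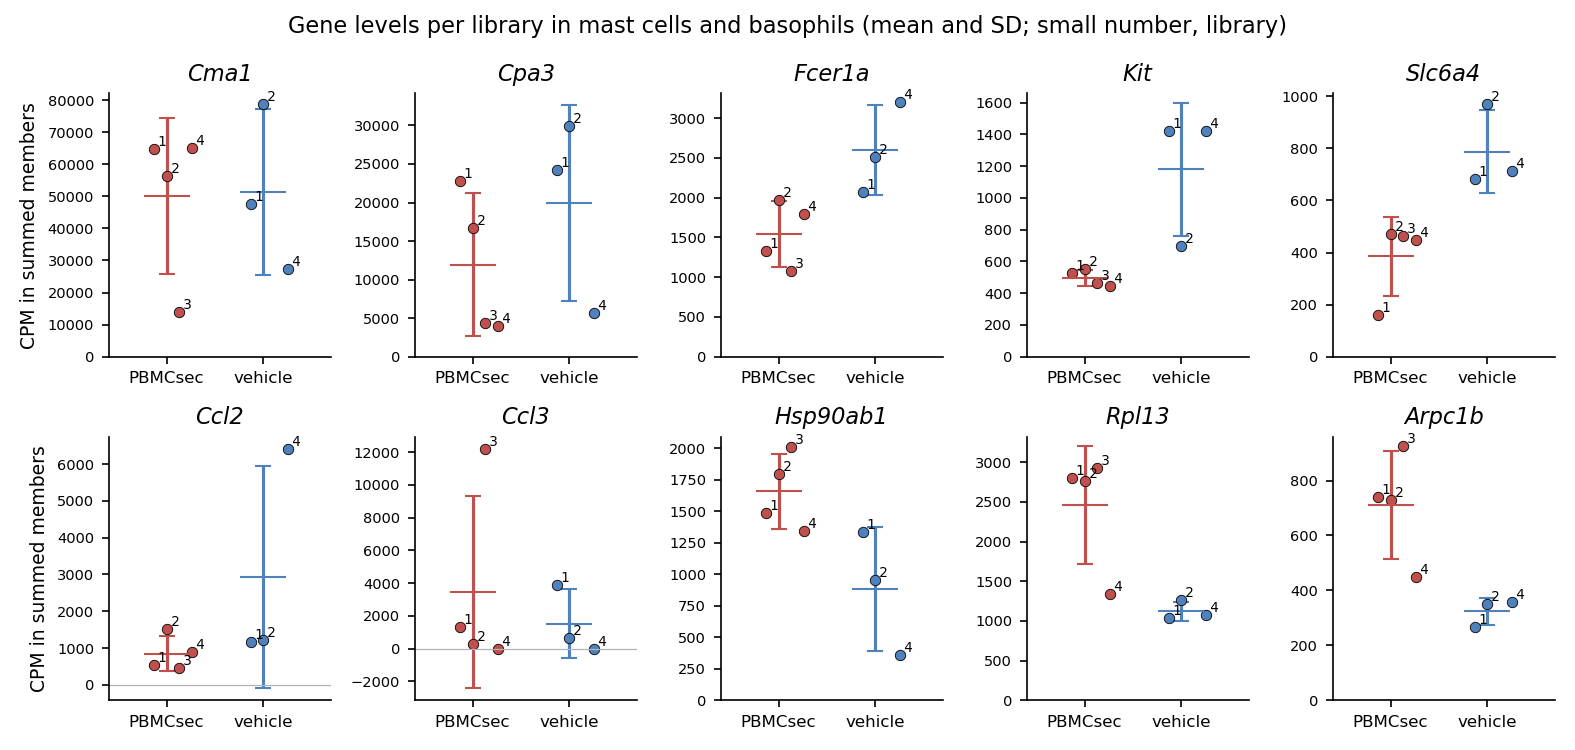
CPM of 10 genes in the summed members of each library (y axes, linear) after PBMCsec (4 libraries) and vehicle (3 libraries with members). Points are libraries with their number, horizontal lines means and bars SD. Outside the rule's genes (Cma1, Cpa3 and Fcer1a, shown as values only), the groups overlap for Ccl2 and Ccl3 and do not for Kit, Slc6a4, Hsp90ab1, Rpl13 and Arpc1b, of which Kit, Slc6a4 and Hsp90ab1 overlap once basophils are left out, and none of these 7 passed the adjusted test.

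Of the other groups, both tested genes of the growth factor and cytokine receptors were lower, Kit and Il1rl1, the latter with 1377, 572, 154 and 0 CPM after PBMCsec against 2163, 1607 and 0 CPM after vehicle (log2 fold change -1.27 ± 0.80). All 3 tested surface receptors were lower in value, with Mrgprb1 at -0.93 ± 0.59, Mrgprb2 at -0.97 ± 0.56 and Cd200r3 at -0.01 ± 0.57. Gata2 (-0.38 ± 0.63) and Zeb2 (-0.70 ± 0.56) were the tested transcription factors. Among granule amine and matrix genes, 2 were lower and 2 higher, with Hdc at -1.02 ± 0.59, Srgn at -0.28 ± 0.47, Cd63 at 0.25 ± 0.35 and Tph1 at 0.43 ± 0.97. In the mast class alone Hdc had a log2 fold change of -1.40 ± 0.56 (edgeR adjusted p = 0.894). None of these passed the test.

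Chemokines had wide spreads. Of 6 tested cytokine and growth factor genes, 2 were lower and 4 higher. Ccl2 had 530, 1518, 463 and 896 CPM after PBMCsec and 1156, 1213 and 6410 CPM after vehicle, the last from 18 UMIs in 2 cells (log2 fold change -1.46 ± 0.66, edgeR adjusted p = 0.982). Ccl4 had 1907, 0, 12494 and 0 CPM against 8060, 258 and 17450, and Ccl3 had 1324, 256, 12186 and 0 against 3912, 622 and 0. The high Ccl3 and Ccl4 values followed the libraries that held the basophils described above, except Ccl4 in vehicle library 4. Ccl6 had 2542, 1321, 2622 and 0 CPM against 0, 819 and 0 (log2 fold change 2.05 ± 1.06, edgeR adjusted p = 0.982). Ccl7 had a log2 fold change of 0.41 ± 0.77. Of 12 early and NF-kappaB response genes 7 were lower, a count that moved with the fit, to 5 of 11 with no lower limit on genes per cell, 19 of 19 in libraries with at least 10 members, 11 of 12 with the replicate block, 13 of 14 without PBMCsec library 3, 6 of 12 without vehicle library 1 and, in the mast class without vehicle library 4, 2 of 10. Values were Fos at -1.63 ± 0.88, Dusp1 at -0.90 ± 0.77, Rgs1 at -0.77 ± 1.01 and Junb at -0.68 ± 0.74, and vehicle library 4 had the highest value of each (Fos 11752 CPM against at most 2240 elsewhere). Of 4 heat shock genes 3 were higher, Hsp90ab1 at 0.59 ± 0.42, Hspa1a at 0.40 ± 0.89 and Hspa8 at 0.26 ± 0.61, while Hspa1b was at -0.35 ± 1.08. The part of library composition, with 5 basophils among 64 members, in these values was not tested beyond the repeat in the mast class.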

How the data were processed

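The authors deposited, for each of 8 libraries, a raw UMI count for every gene in every barcode called as a cell, with no normalization. Per the file headers and the submitters' processing notes, Cell Ranger 3.0.2 and mm10 were used, and 31053 genes are listed. Totals ran from 14753926 to 37880651 UMIs per library. Libraries were grouped by their labels. The members and gene lists were chosen with earlier results of these data known.

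Members were picked with Python 3.11.15, and their counts were summed per library. Shares were compared by exact permutation over libraries. For gene comparisons the sums went into edgeR 4.0.16, with low genes removed by filterByExpr, libraries scaled by TMM, a quasi-likelihood test and p-values adjusted after Benjamini and Hochberg (threshold 0.05), and, as an alternative, DESeq2 1.42.0, after leaving out 11 genes (Gm42418, Gm17056, Gm26917 and collagen and keratin genes). Scripts were tested on simulated data. The planned test needed libraries with at least 5 members, 3 per group, which were not present, and the plan then gave values without a test. The gene p-values given here come from the alternative in which every library with a member entered. Summed counts of 2234 to 66031 UMIs limit precision most in PBMCsec libraries 3 and 4 and vehicle library 4. Interaction of treatment with cell class could not be fitted, and basophils were not tested.

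Library numbers are shared by the groups. Deviations of same-numbered libraries from their group means correlated at 0.43, 0.38 and 0.11 over 269 genes for numbers 1, 2 and 4 in all members. In the mast class they correlated at 0.40, 0.31 and 0.04 over 185 genes. The main fits did not pair libraries by number in either class, and a fit with the number as a block was run for both as an alternative. The labels give no source for a pairing.

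Named genes were the 7 of the rule, the 4 tested genes with the highest mean CPM in each of 13 function lists, the 5 with the smallest unadjusted p in each direction, the 15 highest in members over other cells (prior of 10 CPM, a UMI in at least 10% of members), the 10 highest in each class over the other, and Kit, Hdc, Gata2, Mrgprb2, Cd200r3 and Il3ra. Others were named for their roles after values were seen. Promoters are from RefSeq (GRCm38.p6).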

Additional observations from a re-analysis of the deposited data

Results flagged for a closer look

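Of 47 sets of 4 libraries examined, 9 held a library that stood apart from the other 3 by Dixon's criterion. The criterion's usual rate of about 1 of 20 sets does not apply here. The sets share cells and include genes of the rule, so the count is a description only. Within the PBMCsec group, library 2 stood above the others in the share of mast cells and basophils (2.37%, next 0.451%) and in that of mast cells (2.24%, next 0.301%). Within the vehicle group, library 1 was alone in holding a basophil (0.201% of cells, the other 3 at 0). With the other 3 at 0, any basophil would have been flagged, so this entry rests on 1 cell and shows nothing further.

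In the summed members of the PBMCsec group, library 3 was lowest for Cma1 (14037 CPM, next 56332) and Tpsb2 (925 CPM, next 10801). Those are genes of the rule, and their values are a description only. Library 3 was highest for Ccl4 (12494 CPM, next 1907) and Ccl3 (12186 CPM, next 1324). It held 4 members, of which 1 was a basophil with 79 Ccl3 and 81 Ccl4 UMIs, and all of the library's Ccl3 and Ccl4 UMIs were in that cell. PBMCsec library 1 was lowest for Slc6a4 (159 CPM, next 448), from 3 UMIs. PBMCsec library 4, with 2 members, was lowest for Rpl13 (1344 CPM, next 2759), also from 3 UMIs.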

How the results depend on the processing

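The share of members and that of mast cells kept the direction given, lower on average after PBMCsec, in all alternatives but 1. In the libraries numbered 3 and 4 only, both turned, to differences of 0.0646 and 0.0487 percentage points. Counting the cell with none of the 3 class genes as a basophil, chosen after seeing the data, turned the difference in the share of basophils to -0.014 percentage points. Of 82 alternative share values 79 kept their direction. Leaving out 1 library at a time gave differences of -1.26 to -0.14 percentage points for members, -1.27 to -0.15 for mast cells, 0.0044 to 0.0785 for basophils and 7.62 to 18.7 for basophils among members. The replicate block, which permutes treatment within library numbers, gave p = 0.50 for members and for mast cells (exact permutation, smallest possible p 0.125), and with the block in edgeR 0 genes were called in members and 0 in the mast class. The block changed no call. Protease genes were then 4 lower and 4 higher, a count that includes 4 genes of the rule, whose directions support nothing. With the block, unadjusted p under 0.05 was reached by 13 genes that were lower in members and 4 that were higher.

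Gene calls appeared in 4 alternative fits. With only libraries of at least 10 members (PBMCsec library 2 against vehicle libraries 1 and 2, where the lone sample is assumed to vary like the others), 16 genes were lower in members, led by Ccl4, Tnfaip3 and Ccl3, and 5 in the mast class (Ccl6, Ccl3, Ube2v2, Cd93 and Il1rl1). In that fit all 19 tested early response genes were lower in members, where 509 of all 920 genes were lower. In the mast class 16 of 17 were lower, against 467 of all 881 genes. The basophil of vehicle library 1 held 270 of the 455 Ccl4 UMIs of members. Ccl6 was higher in value after PBMCsec in all members (log2 fold change 2.05). Without a filter on low counts 2 genes were lower in the mast class (Ccl4 and Ccl6). The last of these fits took only the libraries numbered 3 and 4, with vehicle library 4 alone in its group. Its log2 fold change of Ccl4 was -8.79 in the mast class. All Ccl6 UMIs of the mast class came from 1 cell of vehicle library 2, and 49 of its Ccl4 UMIs from 1 cell of vehicle library 4. In each of the other alternative fits, leave-one-out included (0 to 0), edgeR or DESeq2 called 0 genes. Of 40 named genes, 21 kept the sign of their fold change in each alternative fit that tested them, which was 14 to 21 of the 21 fits. The 40 include genes of the rule and genes named for a small p in the main fit, so this count is a description only.

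A limit of 5% on mitochondrial UMIs left 20 members, and the differences in share were then -1.23 percentage points for members and 33.3 for basophils among members. Alternatives chosen after seeing the data were a sum of at least 3 marker UMIs (69 members, 9 of them basophils), up to 1 Cd3e UMI (67) and no lower limit on genes (92, with 2 in vehicle library 3). Depth limits every gene comparison, since 3 of the 7 libraries with members held 2234 to 6506 member UMIs.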
